A study of Drosophila melanogaster and Drosophila simulans and Drosophila yakuba with 12 samples.

Results

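The mir-309 to mir-6 cluster of Drosophila is a row of 8 microRNA (miRNA) hairpins, mir-309, mir-3, mir-286, mir-4, mir-5, mir-6-1, mir-6-2 and mir-6-3. They were chosen by name among the 176 D. melanogaster, 136 D. simulans and 80 D. yakuba hairpins with deposited alignments. Since mir-6 has 3 copies, the 8 hairpins give 6 distinct miRNAs with 12 mature arms, of 338 arms counted in D. melanogaster. The data are 12 small RNA libraries from 10 RNA samples of whole animals, and the question here was which of these miRNAs were still read in late larvae and early prepupae. D. melanogaster Oregon-R gave 2 samples of male larvae, 2 of male prepupae, 1 of female larvae and 1 of female prepupae. Males of D. simulans (stock 14021-0251.167) and of D. yakuba (stock 14021-0261.00) gave 1 larval and 1 prepupal sample each, and both prepupal RNAs were made into 2 technical libraries. All flies were reared at the same temperature under constant light. Larvae were wandering animals taken 18 h before puparium formation, and prepupae were white prepupae of at most 1 h. How many animals went into a sample is not given in the sources used here, so that p-values measure only the spread between these samples.

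A miRNA is cut as a duplex from a hairpin, with 1 strand from the 5′ side (5p) and 1 from the 3′ side (3p), and it binds messages mainly through its seed, bases 2 to 8. In Drosophila the hairpins of this cluster are cut from a common transcript that is switched on with the first zygotic genes under the activator Zelda. Their products are known for clearing maternal messages at the maternal-to-zygotic transition in the embryo. miR-6 and its relative miR-11 are known to limit apoptosis in the fly embryo through the pro-apoptotic genes of the reaper family, and miR-6 belongs to the K box family, whose members act on Notch pathway genes.

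By their main arms the members fell into 5 seed groups, and most of their seeds also occurred in miRNAs elsewhere in the genome. The sequences below show these seeds in relatives on other chromosome arms, in capitals, since the reads of the members are set beside those of these relatives further on. They are the mature sequences listed in the deposited D. melanogaster alignments, except that of miR-9a-3p, which is its commonest read. The seed of miR-3 and miR-309 was shared with miR-318-3p (arm 3R), that of miR-4-3p with miR-9a-3p (3L), that of miR-286 with miR-279-3p and miR-996-3p (3R), and that of miR-6-3p and miR-5-3p with K box miRNAs such as miR-2b-3p (2L) and miR-11-3p (3R).
miR-318-3p: uCACUGGGcuuuguuuaucuca
miR-9a-3p: aUAAAGCUagcuuaccgaaguua
miR-279-3p: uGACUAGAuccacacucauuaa
miR-996-3p: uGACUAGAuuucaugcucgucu
miR-2b-3p: uAUCACAGccagcuuugaggagc
miR-11-3p: cAUCACAGucugaguucuugc
The seed of miR-5-5p was found in no other listed arm. The listed miR-79-3p, often grouped with miR-4, carried the same 7 bases at its positions 1 to 7, so that its own bases 2 to 8 differed.

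In the BDGP6 assembly the cluster lay on the minus strand of chromosome arm 2R, from 19661774 at the start of mir-309 down to 19660716 at the end of mir-6-3. That is 1059 bases, with gaps of 42 to 73 bases between neighbouring hairpins. In the annotation the stretch overlapped the noncoding gene lncRNA:CR44504, among other noncoding entries, and no protein-coding gene. The nearest coding genes were CG11018, 661 bases away on the mir-309 side, and CG15125, 1116 bases away on the mir-6-3 side. All 8 hairpins were listed in the 3 species in the same order and on a single strand. Each mature sequence was identical in D. melanogaster, D. simulans and D. yakuba. The rest of the hairpins differed from D. melanogaster at 0 to 3 aligned bases in D. simulans and at 2 to 5 in D. yakuba. No read of a member was listed for a hairpin outside the cluster (0 distinct reads). Over the first 20 bases the closest other arm to miR-5-3p was miR-6-3p, with 4 differences, and miR-5-5p lay 11 differences from its closest arm.

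Reads on miRNA arms numbered 1423 to 48209 per library, which is shallow. Each share below therefore carries a 95% Clopper-Pearson interval, and a count of 0 allows up to 3 reads. Reads had no molecular identifiers, so that intervals and floors cover counting error only. An index of 4 nt, 1 of 5 in use, was ligated with the 5′ adaptor of each library, and libraries were pooled in 3 pools of 4 before the 3′ adaptor. Both male larval libraries of D. melanogaster carried index ACTG and both male prepupal ones TGAC, so that stage and index cannot be told apart there. The female libraries carried CTGA and GACT, which no D. melanogaster male library had, so that sex and index cannot be told apart either. The stage labels were checked with let-7 and miR-125, which are known to come on at the larva-to-prepupa transition. Together they held 0 to 0.147% of the reads in the 5 larval libraries and 0.230% to 1.28% in the 7 prepupal ones, with no overlap. For the whole-body label, the muscle miRNAs miR-1 and miR-133 and the neuronal miR-124 were read in all 12 libraries, and miR-281 of the digestive tract in 5 of 5 larval and 6 of 7 prepupal libraries. The levels varied widely, since the muscle miRNAs together held 5.66% to 37.0% of larval and 0.978% to 47.4% of prepupal library reads.

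Of the 6 miRNAs, 4 were read in any library and the same 4, miR-286, miR-4, miR-5 and miR-6, were read in both stages. For miR-286 this rested on 2 larval and 3 prepupal reads, and for miR-4 on 3 and 2, each at or under the floor of 3 reads. miR-309 and miR-3 gave 0 reads in all 12 libraries. The cluster held 534 of 172112 reads (0.310%, interval 0.285% to 0.338%), and miR-5 supplied 512 of them, or 95.9%. Without male larva replicate 1, which gave the most reads of the cluster, the same number of miRNAs (4) had a read, 285 reads remained, and miR-5 held 95.8% of them. In larvae alone the number of miRNAs read then fell to 3, because the miR-6 reads of larvae came from that library.

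**Figure D1:**
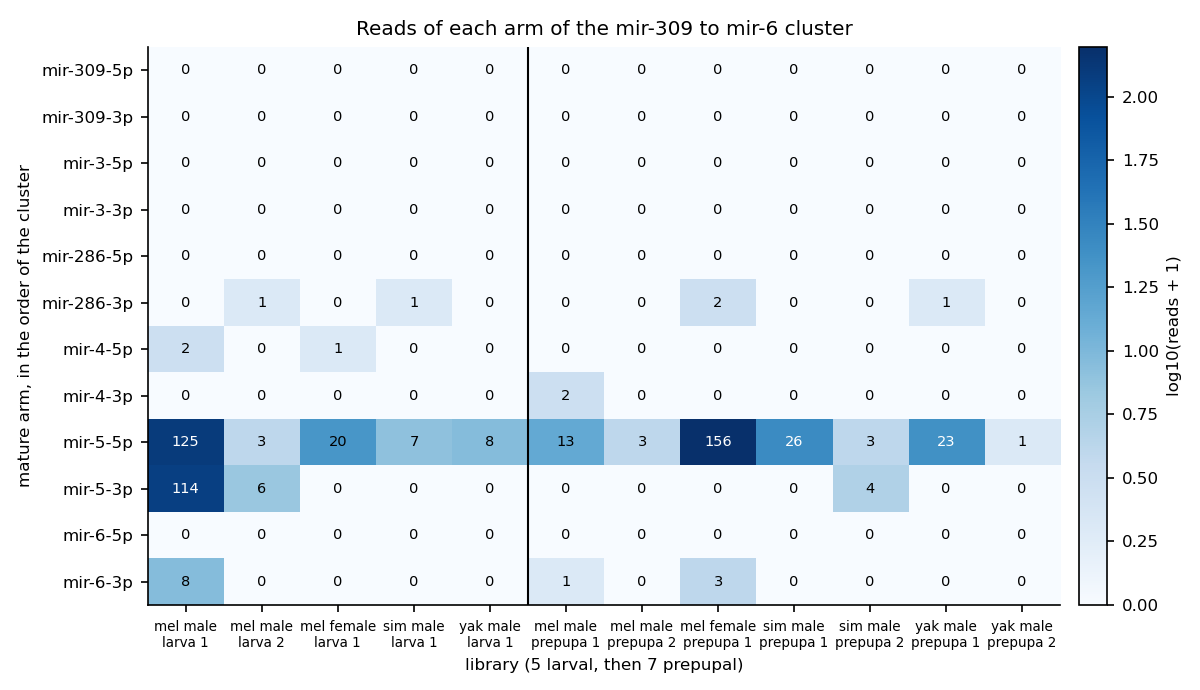
Reads of each mature arm (vertical, from mir-309 to mir-6) in each of the 12 libraries (horizontal, larvae left of the line and prepupae right of it). Numbers are reads and shading is log10(reads + 1). The row of miR-5-5p has a read in all 12 libraries, the row of miR-5-3p in 3, and the rows of mir-309 and mir-3 in 0.

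Taking the 2 head members first, miR-309 and miR-3 stayed at 0 reads on both arms. The limit was 3 of 52495 reads in larvae (0.00571%) and 3 of 119617 in prepupae (0.00251%). In single libraries the limit lay between 0.00622%, in the female prepupal library, and 0.211%, in D. yakuba prepupal library 2. Their relative miR-318-3p, known from the ovary, was also at 0 in all 12 libraries.

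miR-286, which carries the seed of the miR-279 family, was read on its 3p arm with 5 reads in 4 libraries. There was 1 read in D. melanogaster male larva replicate 2, 2 in the female prepupal library, 1 in D. simulans larvae and 1 in D. yakuba prepupal library 1. These reads came from all 3 species and both stages, and each count was at or under the floor, so that no fold is given. All 5 began at the listed start, and 80.0% were 23 nt long. Reads of miR-279-3p, known for blocking the formation of carbon dioxide sensing neurons in the fly head, numbered 572, and those of miR-996-3p 384. miR-996 was listed for D. melanogaster only, so that the share of miR-286 among reads with this seed is given apart. It was 3 of 936 reads (0.321%) in D. melanogaster and 2 of 25 in the other species together.

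miR-4 was read on both arms, with few reads on each. Its 5p arm had 2 reads in male larva replicate 1 and 1 in the female larva library, and its 3p arm had 2 reads in male prepupa replicate 1. All 5 reads were from D. melanogaster and from a single pool, SDY1, and no library held both arms. The 3p arm shared its seed with miR-9a-3p, which had 23 reads. The 5p arm shared its seed with miR-9a-5p, miR-9b-5p and miR-9c-5p, of which miR-9a-5p, a miRNA of sense organ precision, had 1260 reads in 12 libraries.

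miR-6 was read on its 3p arm, with 8 reads in male larva replicate 1, 1 in male prepupa replicate 1 and 3 in the female prepupal library, and with 0 in the other libraries. All 12 reads matched all 3 copies, so that mir-6-1, mir-6-2 and mir-6-3 cannot be told apart. The libraries with reads were 3 of the 4 of pool SDY1, the female larva library having 0, and the stages overlapped, since male larva replicate 2 had 0. Summed over D. melanogaster males, there were 8 of 39281 larval reads and 1 of 19653 prepupal reads. All 8 came from 1 library and the prepupal count was under the floor, so that no fold is given. Each of the 12 reads began at the listed start, and the commonest length was 20 nt (58.3%).

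miR-5 was the member read in every library, though counts of 3 reads or fewer are at or under the floor. miR-5-5p held 0.429% of the reads (125 reads) in D. melanogaster male larva replicate 1, 0.0297% (3) in replicate 2, 0.122% (13) in male prepupa replicate 1 and 0.0332% (3) in replicate 2. It held 0.424% (20) in the female larva library and 0.324% (156) in the female prepupal one. The highest and the lowest of the 12 libraries were thus the 2 samples of male larvae, and larvae and prepupae overlapped. In D. simulans the shares were 0.147% (7) in larvae and 0.111% (26) and 0.0590% (3) in the prepupal libraries. In D. yakuba they were 0.214% (8) in larvae and 0.106% (23) and 0.0703% (1) in the prepupal libraries. In both of these species the larval library was the higher, with intervals that overlapped those of the prepupal libraries.

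In the order of all 12 shares, each library's interval overlapped that of the next lower one. miR-5-5p ranked from 23 to 61 among the arms of a library, with a median rank of 34.5, and 37 arms had more reads over all libraries. The libraries of pool SDY1 lay between 0.122% and 0.429%, those of SDY3 between 0.0297% and 0.111%, and those of SDY4 between 0.0590% and 0.214%. The 4 SDY1 libraries, all D. melanogaster, were thus above the 4 SDY3 libraries, which came from 3 species. Species and pool were only partly crossed, and the part of the pool in these levels was not tested beyond the within-pool values given here. In whole animals, fewer cells of a type and less RNA per cell cannot be told apart.

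**Figure D2:**
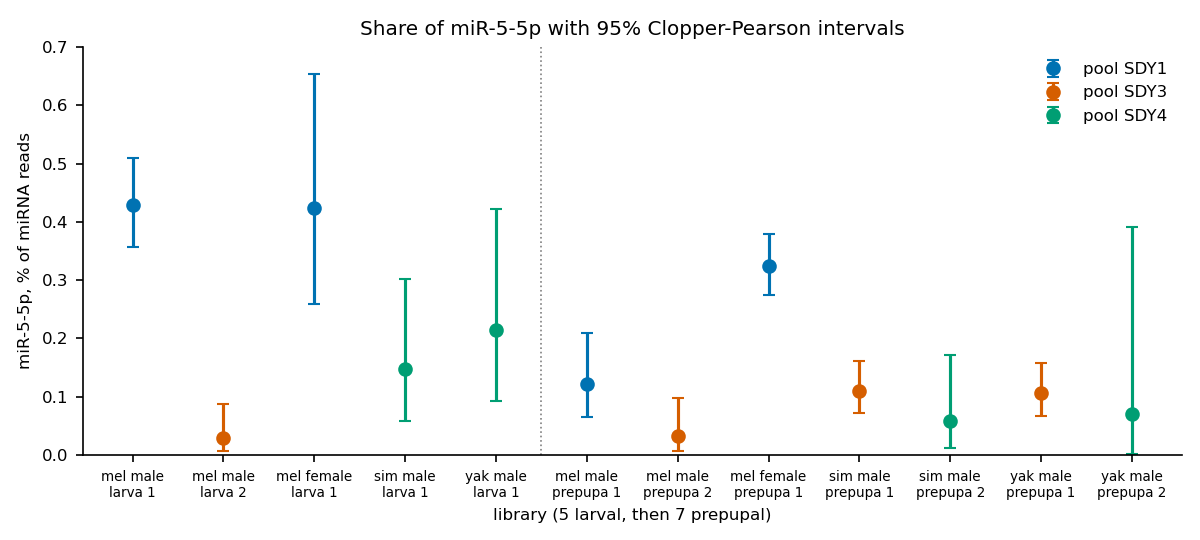
Share of miR-5-5p among miRNA reads (vertical, percent) in each of the 12 libraries (horizontal, larvae left of the dotted line), with 95% Clopper-Pearson intervals and 1 colour per pool. The 2 male larval samples of D. melanogaster sit at 0.429% and 0.0297%, the highest and the lowest points.

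The replicates of male larvae differed by more than counting error, with 14.4 times the share in replicate 1 (interval 4.83 to 71.0), and those of male prepupae differed 3.68-fold (1.01 to 20.1). Within pool SDY1, male larvae had 3.50 times the share of male prepupae (1.98 to 6.76), whereas within pool SDY3 the ratio was 0.892 (0.12 to 6.66). The counting intervals of the within-pool ratios overlapped, and their difference was not tested. Within pool SDY1 the female larva and male larva libraries had a ratio of 0.988 (0.584 to 1.59), and the female prepupal library had 2.65 times the share of the male one (1.5 to 5.08). The ratio of female larvae to female prepupae was 1.31 (0.778 to 2.09). In D. simulans and D. yakuba the larva over prepupa ratios, with prepupal libraries summed, were 1.45 (0.536 to 3.38) and 2.07 (0.804 to 4.76).

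These ratios rest on counts of single libraries, so the stage change was also tested over samples. In D. melanogaster males, with 70 arms tested by edgeR's quasi-likelihood test, 2 arms of the cluster passed the filter on low counts and 1 of them, miR-5-3p, was called at an adjusted p below 0.05. Over all arms the share called was 8.57%. In this fit miR-5-3p had reads in the 2 male larval libraries and 0 in the other 4, so that it passed the filter only through the group where it was high, and nothing is drawn from the 1 of 2 members called. DESeq2 called 0 of the 2 members (1 at an unadjusted p below 0.05), against 5.71% of all arms. For miR-5-5p the log2 change from larva to prepupa was −1.51 ± 1.32 (SE, n = 2 and 2, Benjamini-Hochberg adjusted p = 0.606), beside a median of 0.12 over all 70 arms. Without male larva replicate 1 it was 1.64, so that its direction rested on that library. This fit did not use the pairing of samples by replicate number. With the replicate number as a block, in the 4 male libraries alone, the change was −1.21 ± 0.79 (edgeR adjusted p = 0.230).

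Over both sexes of D. melanogaster miR-5-5p, the member arm that was tested, had a log2 change of −0.76 ± 1.28 (edgeR adjusted p = 0.940, n = 3 and 3), and 0.87 without male larva replicate 1. Of the 1 member tested, 0 were called, against 1.72% of the 58 arms. The same fit gave −1.66 ± 1.30 for male minus female (adjusted p = 0.639), with −2.83 to −0.51 when a library was left out (−0.51 without the female prepupal one), again 0 called against 1.72%. Sex and index cannot be told apart here, and both female libraries were of pool SDY1, whereas males were of SDY1 and SDY3. Across males of the 3 species, with species in the model and 8 RNA samples, the stage change was −1.18 ± 0.89 (edgeR adjusted p = 0.518), with 0 called against 0% of 44 arms, and −0.01 without male larva replicate 1. D. simulans minus D. melanogaster was −0.50 ± 1.09 (adjusted p = 0.723, 0 called against 6.82%), beside a median of −0.85 over all arms. D. yakuba minus D. melanogaster was 0.34 ± 1.06 (adjusted p = 0.852, 0 called against 0%), beside a median of −0.28. It was 0.01 to 1.35 with a library left out and 1.07 with the summary counts. In each of these comparisons 0 members had an unadjusted p below 0.05, and DESeq2 also called 0. The share of all arms that DESeq2 called was 10.3% for stage over both sexes, 1.72% for sex, 4.55% for stage across species, 13.6% for D. simulans and 9.09% for D. yakuba.

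The other arm, miR-5-3p, was read in 3 libraries only. It had 114 reads (0.391%) in male larva replicate 1, 6 (0.0593%) in male larva replicate 2 and 4 (0.0786%) in D. simulans prepupal library 2, and 0 in the other 9 libraries. In D. melanogaster males the reads were in the larval libraries, but in D. simulans they were in a prepupal library and the larval library had 0. With a floor of 3 reads in the prepupal library and the larval count taken as it stands, male larvae had at least 13.8-fold more within pool SDY1 and at least 1.78-fold more within pool SDY3. In both pairs the larval library carried index ACTG and the prepupal one TGAC, so that stage and index cannot be told apart in these folds. The exact lower limits, which also cover the counting error of the larval library, were 11.1-fold and 1.05-fold. The edgeR adjusted p of 0.0463 was 0.200 with DESeq2 and 0.0521 with RLE scaling. It was 0.279, 0.379 and 0.154 without the female larva library, male prepupa replicate 1 and male prepupa replicate 2. Without male larva replicate 1, and in the fit of the 4 male libraries alone, the arm did not pass the filter.

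The 3 libraries with miR-5-3p were the 3 that carried index ACTG. Over them 124 of 255 miR-5 reads were on the 3p arm, or 48.6% (interval 42.3% to 54.9%), with 47.7% in male larva replicate 1, 66.7% in replicate 2 and 57.1% in D. simulans prepupal library 2. In the 9 libraries with another index it was 0 of 257 reads, which allows at most 1.43%. D. simulans prepupal library 1, made from the same RNA with index GACT, had 26 reads of the 5p arm and 0 of the 3p arm. The female larva library, of the same pool and stage as male larva replicate 1 but with index CTGA, had 20 and 0. Split by index the libraries did not overlap, and in D. melanogaster males that split is the same as the split by stage.

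**Figure D3:**
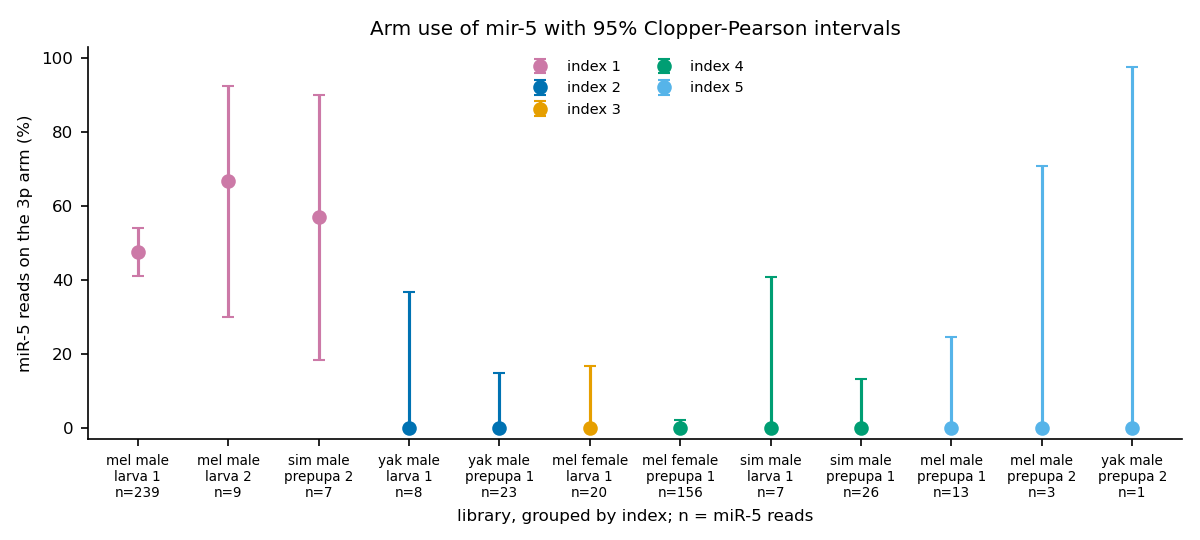
Percent of miR-5 reads on the 3p arm (vertical) in each library (horizontal, grouped by index, with n the miR-5 reads), with 95% Clopper-Pearson intervals. Index 1 is ACTG, 2 CGAT, 3 CTGA, 4 GACT and 5 TGAC. The libraries of index 1 lie between 47.7% and 66.7%, and all others at 0.

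To set this against other hairpins, arm use was compared in pairs of libraries for all miRNAs with at least 5 reads in each. Between the D. simulans prepupal libraries of a single RNA, the 3p share of miR-5 differed by 57.1 percentage points, and 1 of 39 miRNAs differed by more in that direction, with a median difference of 0 and a range of −49.2 to 66.3 points. Between male larva replicate 1 and the female larva library miR-5 differed by 47.7 points, the highest of 43 miRNAs, whose lowest was −43.6. Between male larva replicate 1 and male prepupa replicate 1 it also differed by 47.7 points, the highest of 54, but the lowest, −56.5, was larger in size. Among 54 arms listed in all 3 species with at least 50 reads, miR-5-3p was the 1 arm with all its reads in ACTG libraries. The next highest arm had 96.3% there, the median was 24.0%, and all reads together had 25.8%. miR-5-5p, from the same hairpin, had 33.8%. These arms were compared as a description after the pattern had been seen.

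miR-5-3p and miR-6-3p carry the K box family seed, and their part in that family's reads varied by library. In male larva replicate 1 they held 122 of 598 reads with this seed, or 20.4% (interval 17.2% to 23.9%). The share was 2.05% in male larva replicate 2, 3.15% in D. simulans prepupal library 2, 0.813% in male prepupa replicate 1 and 0.690% in the female prepupal library, and 0 in the other 7 libraries. Most reads with this seed came from relatives outside the cluster, with 900 for miR-13b-3p, 611 for miR-11-3p, 375 for miR-2b-3p and 355 for miR-2a-3p, each read in 12 libraries. By index, miR-13b-3p had 54.2% of its reads in ACTG libraries, miR-2a-3p 43.2%, miR-2b-3p 42.9% and miR-11-3p 12.8%.

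Most reads of the miR-5 arms had the form of mature miRNAs, and the other members had too few reads to judge. Of 388 miR-5-5p reads, 99.5% began at the listed start and 84.0% were 22 nt long, with a range of 19 to 23 nt. Of all miRNA reads, 36.1% to 61.1% per library were 22 nt long. For miR-5-3p, 83.9% of 124 reads began at the commonest start, 19 began 1 base later and 1 began elsewhere. A start 1 base later moves the seed by 1 base. All 20 reads with another start came from male larva replicate 1, while the 6 and 4 reads of the other libraries began at the commonest start. Its commonest length was also 22 nt, in 76.6% of reads.

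**Figure D4:**
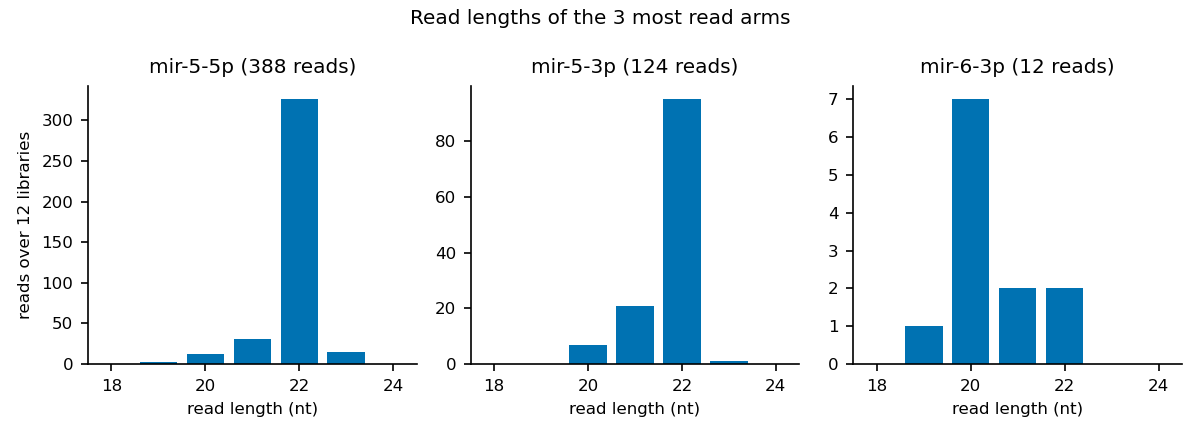
Read lengths (horizontal, nt) of miR-5-5p, miR-5-3p and miR-6-3p against reads summed over the 12 libraries (vertical, a separate scale in each panel). The miR-5 arms peak at 22 nt and miR-6-3p, with 12 reads, at 20 nt.

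Over the 10 RNA samples, the arms outside the cluster whose shares ranked most like that of the cluster were miR-281-3p, of the digestive tract (Spearman rho 0.74), miR-10-5p, a miRNA of the Hox gene region (0.71), and miR-284-5p (0.68), among 52 arms with at least 50 reads. The points share pools and depth, and the coefficients are a description. miR-281-3p had only 100 reads in all, with 0 in male larva replicate 2, male prepupa replicate 2 and D. simulans larvae. With the share of miR-5-5p alone the coefficients of these arms were 0.73, 0.64 and 0.60, and miR-iab-4-5p had 0.66. In male larva replicate 1, where the cluster held 0.854%, these arms held 0.0377%, 0.285% and 0.250%. In male prepupa replicate 2, where it held 0.0332%, they held 0, 0.0111% and 0.0111%. The likeness was loose, since miR-281-3p was highest in the female prepupal sample (0.151%) and miR-10-5p in the female larva sample (5.30%), where the cluster held 0.334% and 0.445%.

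Since the cluster is known from early embryos, miRNAs of the ovary were looked up as well. Of miR-318, miR-989 and miR-994, which are ovary-rich in the fly, 1 had a read. miR-989-3p had 1 read in the D. melanogaster female prepupal library, 2 and 1 in the D. simulans prepupal libraries and 1 in D. simulans larvae. The D. simulans libraries were all of males. miR-318 and miR-994 were at 0. The summed level of the 3 was 0 to 0.0210% in larval and 0 to 0.0197% in prepupal libraries, and an ovarian source of the cluster reads was not tested. The 6 testis-rich miRNAs miR-959 to miR-964 all had a read and summed to 0 to 0.129% in larval and 0 to 0.0887% in prepupal libraries.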

How the data were processed

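Reads had been aligned to the miRNA hairpins of miRBase release 15, per the file headers, with Bowtie 0.12.5, per the submitters' processing notes. The sources used here give no genome build. The authors deposited a summary table of expected counts (reads divided among matching loci) and alignment texts that list each distinct read with its whole number of reads. Neither is normalised. Inserts of 16 to 28 nt had been selected, per the labels' protocols. Columns of another series in the summary table (8) were not used.

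Reads of each library were summed per mature arm on its own species' hairpins, counting a read on copies of 1 miRNA once. Of 3228 summary cells, 3221 (99.78%) lay within 1 read of these sums. The 230 distinct reads with untemplated ends were left out, 0 of them on members. Totals were 1423 to 48209 reads. Counts were tested with edgeR 4.0.16 (TMM scaling, filterByExpr, quasi-likelihood F test, Benjamini-Hochberg over all arms, threshold 0.05), with DESeq2 1.42.0 as an alternative. Each SE given with an edgeR change is the absolute log2 change divided by the square root of its F statistic. The fits were a model of 4 group means in D. melanogaster, stage and sex over the same 6 libraries, and stage and species over 8 male RNA samples with technical libraries summed. Replicate numbers of D. melanogaster males go with the pool in the sample titles, and same-numbered deviations correlated with an r of 0.738 over 50 miRNAs. Samples of 1 number, and thus of 1 pool, shifted together. The main fits did not use this pairing, and a replicate block was run as an alternative.

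The named arms are all arms of the members with a read, their seed relatives, 3 arms of like pattern and the ovary-rich miRNAs. Members and lists were chosen with earlier results of these data known. The alternatives were RLE scaling, DESeq2, no filter, the summary counts, each library left out, the replicate block, and other hairpin sets for the shares. Leaving out male larva replicate 1, or the ACTG libraries, from the count of miRNAs read was added after the data were seen.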

Additional observations from a re-analysis of the deposited data

Results flagged for a closer look

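miR-286-3p had 0 of 4721 reads in larvae and 2 of 48209 (0.00415%) in prepupae of D. melanogaster females, against 1 of 4762 in larvae and 0 in both prepupal libraries of D. simulans males. It is listed because the sign of these differences was opposite. The difference was not tested, each count is under the floor of 3 reads, and no change with stage is shown in either group.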

How the results depend on the processing

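The 1 call among the members, miR-5-3p between stages of D. melanogaster males, rested on an arm that entered the test only through the male larval libraries. It was made without a filter and with the summary counts and became 0 calls with RLE scaling and with DESeq2. With libraries left out in turn the number of calls was 0 to 1, and it was also 0 to 1 for stage over both sexes (1 without the female prepupal library) and for stage across males of 3 species (1 without the D. simulans larval library). In all other alternatives run for those 2 comparisons, and in all run for sex and for species, it stayed at 0. The causes were not tested.

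With the 4 male libraries alone, both with and without the replicate block, the members gave 0 calls, since miR-5-3p did not pass the filter. miR-5-5p changed by −1.21 ± 0.79 with the replicate block (edgeR adjusted p = 0.230) and by −1.42 without it (0.400). Over both sexes the block gave −0.30. The block changed no other call.

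For miR-5-5p, leaving out libraries gave −2.27 to 1.64 for stage in males, −1.95 to 0.87 over both sexes and −0.77 to 1.19 for D. simulans minus D. melanogaster, which was also 0.0545 without a filter and 0.11 with the summary counts. RLE scaling moved the median of all arms from 0.14 to −0.04 over both sexes, from −0.85 to −0.34 for D. simulans and from −0.28 to −0.08 for D. yakuba. All 12 cluster shares stayed within their intervals in the 3 alternatives for them, and 4 miRNAs had a read without the ACTG libraries. At 1423 to 48209 reads a library, shares of members under the floor of 3 reads could not be compared.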
